A study of Oryza sativa with 17 samples.

Results

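Invertases, fructokinases and hexokinases carry sucrose into the hexose phosphate pool of the rice grain. The 4 genes described here were OsCIN5 (LOC4337313), a cell wall invertase, the fructokinases LOC4331726 and OsFKI (LOC4324962), and the hexokinase LOC4339361, which the reference table names HXK5. They are 4 of the 32657 genes in the expression table, were picked by gene identifier, and were followed over all 17 libraries. These genes were selected on measured values, because the study drew them out for changes under Fe application at veraison, the colour-turning stage of the grain. Differences between Fe and control in black rice at 10 days after flowering (DAF) and in red rice at 15 DAF are therefore given as a description, with no test.

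The libraries came from grain, grown in pails under natural conditions, of the black rice Nanheinuo (BR) and the red rice Yuhongdao 5815 (RR). Control plants were sprayed on the leaves with deionized water and Fe plants with ferrous sulfate, and by the study's methods every spray also held nicotinamide and Tween 80. BR was sampled at 10 DAF with 3 control and 3 Fe libraries, RR at 15 DAF with 2 control and 3 Fe libraries, and RR at 20 DAF with 3 of each. A replicate pooled several pails of plants, the Fe concentration behind each library is not stated in the labels, and the day of the BR libraries comes from the methods. Variety and day change together between BR and RR, so their parts in any BR to RR difference cannot be told apart.

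Sucrose that leaves the phloem can be split outside the cell by cell wall invertase or inside it by cytosolic, neutral or vacuolar invertase, and each split yields glucose and fructose. Sucrose synthase offers another route and yields UDP-glucose and fructose. Fructokinase phosphorylates the fructose, which matters in starchy tissue because sucrose synthase releases so much of it. Hexokinase phosphorylates glucose and, less readily, fructose, and some plant hexokinases also act as glucose sensors. In cereal grain, cell wall invertase is known from the early growth and filling of the young seed.

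Levels are given in FPKM, a measure that corrects fragment numbers for transcript length and library size, so they can be set side by side between genes. Summed FPKM ran from 547675 to 679747 per library, between 20050 and 23671 genes were above 0, and read depth is unknown. Library medians of log2(FPKM + 1) over all genes tested were 1.52 to 1.76 in BR and 2.12 to 3.03 in RR. The typical gene thus read higher in RR. The RR Fe 15 DAF libraries were not alike. On the log2(FPKM + 1) scale replicate 1 correlated at 0.969 and 0.945 with the 15 DAF controls and at 0.845 and 0.877 with replicates 2 and 3 of its own group. Replicates 2 and 3 correlated at 0.827 to 0.905 with the 15 DAF controls and at 0.863 to 0.940 with the 20 DAF libraries. The 9 genes taken by name as endosperm storage markers were all detected in every group. Their summed FPKM fell with day in RR, from 62824 to 96138 in the 15 DAF controls to 3711 to 11588 in the 20 DAF controls. GLB1 (LOC4337720) went the other way, with means of 4.83 and 9.71 FPKM in those controls, and read only 2.08 FPKM in BR controls. Whether GLB1 is a storage gene was not checked, and it adds little to the sum. In that RR Fe 15 DAF group the sum was 70765 in replicate 1 and 19709 and 20696 in the others. In bulk grain RNA, fewer cells of a type and less RNA per cell cannot be told apart.

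OsCIN5 was above 1 FPKM in the BR controls alone, the grain of black rice sprayed without Fe. It read 1.03, 1.12 and 1.19 FPKM in the BR controls. Under Fe in BR it read 0.154, 0.198 and 0.115 FPKM. The groups did not overlap, and the control mean of 1.11 ± 0.0839 (SD, n = 3) was 7.14 times the Fe mean of 0.156 ± 0.0417 (SD, n = 3). On the log2(FPKM + 1) scale that difference was -0.87, a scale that understates the change of a gene at so low a level. In RR at 15 DAF, OsCIN5 read 0.0901 and 0 FPKM in the controls and 0.288, 0 and 0 FPKM under Fe. It was listed at 0 in all 6 RR libraries at 20 DAF. Only 3 libraries reached 1 FPKM, all of them BR controls, so OsCIN5 entered the set of tested genes through the group in which it was high.

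**Figure D1:**
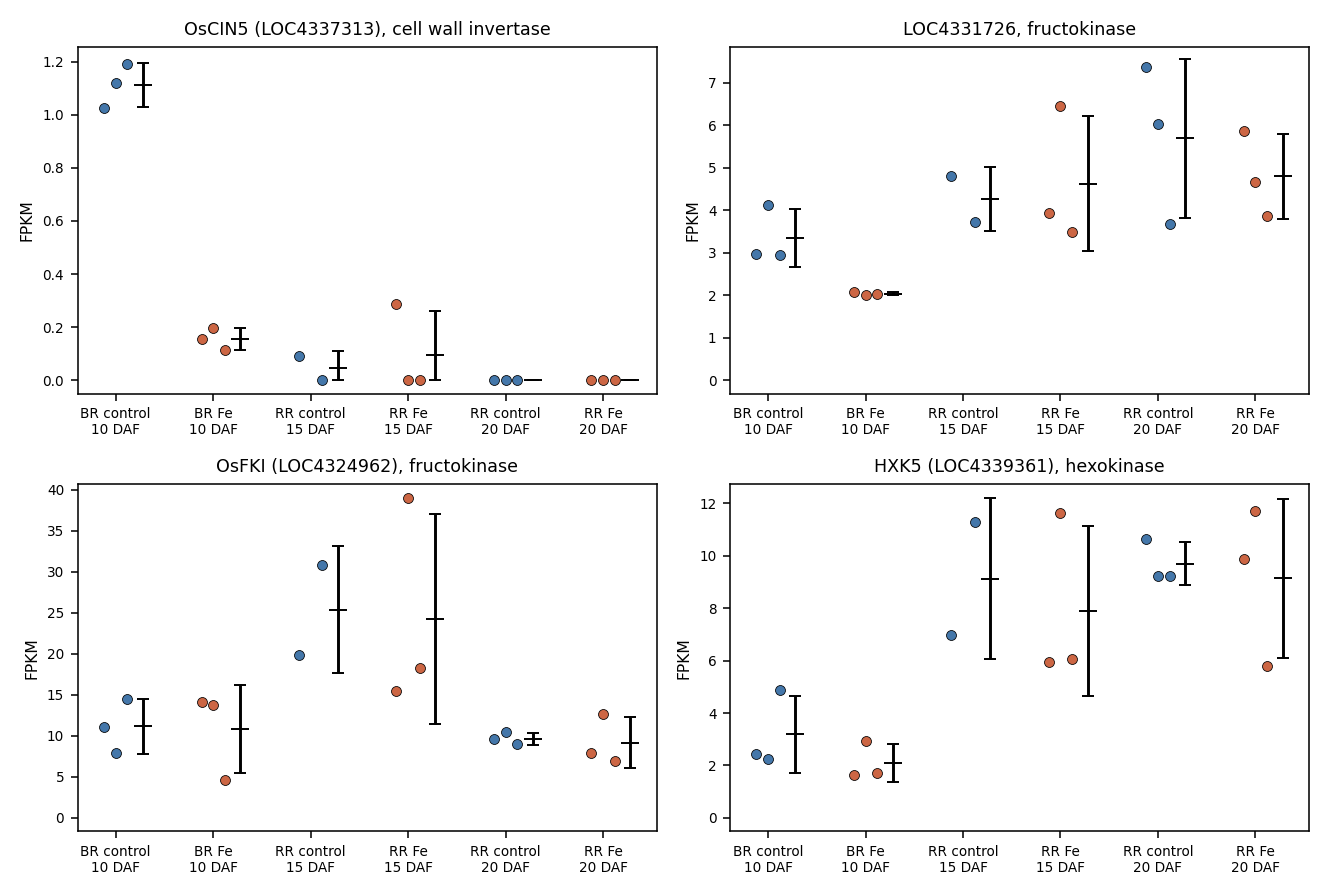
FPKM (vertical axes, each from its own 0) of the 4 genes in each library, by group. Points are libraries, blue for control and orange for Fe, and the bars to their right give mean ± SD, cut at 0 where the SD exceeds the mean. OsCIN5 lies above 1 FPKM in the 3 BR controls and nowhere else, OsFKI is highest at 15 DAF in RR, and LOC4339361 is higher in every RR library than in any BR library.

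LOC4331726, the less abundant of the listed fructokinases in BR, read 2.97, 4.13 and 2.94 FPKM in the BR controls. It read 2.07, 2.01 and 2.03 FPKM under Fe in BR. Every Fe library was below every control library, with a log2 difference of -0.51 and a mean ratio of 1.65 between control and Fe. In RR at 15 DAF it read 4.81 and 3.73 FPKM in the controls and 3.94, 6.45 and 3.50 FPKM under Fe, and the groups overlapped. At 20 DAF it read 7.37, 6.04 and 3.68 FPKM in the controls and 5.86, 4.66 and 3.86 FPKM under Fe, again with overlap.

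OsFKI, the other fructokinase, had the highest mean of the 4 genes in BR and in RR at 15 DAF, and varied most between days. In RR at 20 DAF its mean was close to that of LOC4339361, at 9.64 against 9.70 FPKM in controls and 9.18 against 9.14 FPKM under Fe. In BR it read 11, 7.86 and 14.5 FPKM in the controls and 14.1, 13.7 and 4.65 FPKM under Fe. The third Fe library alone lay below all controls, and the log2 difference was -0.13. In RR at 15 DAF it read 19.9 and 30.8 FPKM in the controls and 15.4, 39.0 and 18.3 FPKM under Fe. At 20 DAF it read 9.58, 10.4 and 8.95 FPKM in the controls and 7.90, 12.7 and 6.92 FPKM under Fe. Control and Fe overlapped on each occasion, whereas the lowest 15 DAF library of RR, at 15.4 FPKM, was above the highest 20 DAF library, at 12.7 FPKM.

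The hexokinase LOC4339361 was higher in RR than in BR, which differ in day as well as in variety. It read 2.43, 2.26 and 4.88 FPKM in the BR controls and 1.63, 2.94 and 1.70 FPKM under Fe in BR. In RR at 15 DAF it read 6.97 and 11.3 FPKM in the controls and 5.95, 11.6 and 6.07 FPKM under Fe. At 20 DAF it read 10.6, 9.24 and 9.22 FPKM in the controls and 9.88, 11.7 and 5.81 FPKM under Fe. All 11 RR libraries were above all 6 BR libraries, and control and Fe overlapped within each variety and day. This split was not particular to LOC4339361. LOC4324666 read at most 1.97 FPKM in BR and at least 3.06 FPKM in RR, and LOC4326516 at most 5.57 and at least 6.08 FPKM. The invertases OsNIN1 and OsCYT-INV1 split likewise. OsCIN1, OsCIN6, OsCIN7 and OsFKII split the other way, and the remaining listed hexokinases overlapped. Library medians over all genes tested were higher in RR as well. The share of all genes tested that split BR from RR in this way was not counted, so these splits are given without a reading. For LOC4339361 the log2 difference of Fe from control was -0.41 in BR and -0.22 in RR at 15 DAF.

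Ordered by group mean, the 4 genes gave different sequences. OsCIN5 ran from the RR groups through BR Fe to BR control, and only the last step, from BR Fe to BR control, was free of overlap. For LOC4331726 the order ran from BR Fe at 2.03 FPKM to the 20 DAF RR controls at 5.70 FPKM, and only the first step, to the BR controls at 3.35 FPKM, had no overlap. For OsFKI the 20 DAF RR groups and both BR groups lay between 9.18 and 11.1 FPKM and could not be separated from one another by their ranges, while the 15 DAF RR groups stood above them at 24.2 and 25.4 FPKM. For LOC4339361 the one step without overlap was from the BR controls at 3.19 FPKM to the RR Fe group of 15 DAF at 7.88 FPKM.

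In BR the Fe libraries of 2 of the 4 genes, OsCIN5 and LOC4331726, all lay below the control libraries. Over all genes tested, 6.11% lay wholly below and 8.29% wholly above control in BR, and these shares stand beside the count without a reading, since the same libraries chose the genes. At an adjusted p below 0.05 in limma, 0.915% of all genes were higher and 1.06% lower under Fe in BR. Markers of other grain tissues also differed in value in the same libraries, mostly without passing the test. Of 8 embryo and aleurone markers 7 had lower values under Fe, 1 of them past the test, with summed FPKM of 414 to 1371 in controls and 197 to 609 under Fe. All 6 green pericarp markers had higher values under Fe, none past the test, with sums of 2.15 to 6.12 FPKM in controls and 6.17 to 68.3 FPKM under Fe. Their part in the OsCIN5 and LOC4331726 values was not tested.

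In RR at 15 DAF none of the 4 genes separated Fe from control. Log2 differences were 0.06 for OsCIN5, 0.07 for LOC4331726, -0.15 for OsFKI and -0.22 for LOC4339361. Across all genes at this point, 3.05% lay wholly below and 13.7% wholly above control, and limma called 0% higher and 0% lower. The log2 difference of the endosperm storage markers under Fe had a median of -1.64, with 8 of 9 lower, all but GLB1, and 0 past the test. All 6 green pericarp markers had lower values and 5 of 8 embryo and aleurone markers higher values, with 0 past the test. Over all genes tested, 14403 of 19774 had higher values under Fe. The part of these marker differences in the values of the 4 genes was not tested.

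RR at 20 DAF did not enter the choice of the genes, so here Fe was tested against control. The log2 difference was -0.18 for LOC4331726 (95% interval -0.75 to 0.39), -0.10 for OsFKI (-1.03 to 0.82) and -0.12 for LOC4339361 (-0.85 to 0.61). None passed, each with an adjusted p of 1 by limma, and the intervals are wide enough to hold changes in either direction. OsCIN5 was listed at 0 in both groups. The background was low, with 0.00506% of all genes called higher and 0.0202% called lower, and 3.75% wholly below and 5.15% wholly above control. Without RR Fe 20 DAF replicate 3 the estimates of OsFKI and LOC4339361 changed sign, to 0.06 and 0.14, and neither passed the test.

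Between 15 and 20 DAF in RR, averaged over control and Fe, OsFKI fell. Its log2 difference was -1.26 (SE 0.37, 95% interval -2.04 to -0.47), with an adjusted p of 0.0099 by limma over 19774 genes. The ratio of group means, 15 over 20 DAF, was 2.63 in the controls and 2.64 under Fe, and the log2 differences within treatments were -1.28 and -1.24. LOC4331726 and LOC4339361 did not pass, at 0.19 (-0.30 to 0.67, adjusted p of 0.509) and 0.16 (-0.47 to 0.78, adjusted p of 0.681). The 15 DAF libraries are shared with the contrast that chose the genes, although the Fe difference largely cancels from a mean of both treatments.

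The days differed widely across the transcriptome, which sets the scale for that result. Of all genes tested, 43.5% were called higher and 9.21% lower at 20 DAF (8593 and 1822 genes, or 3832 and 4260 with libraries centred on their medians), and the median log2 difference over all genes was 0.53. Set against that median, OsFKI fell further, to -1.79 with libraries centred on their medians and -1.90 after quantile normalization. LOC4331726 and LOC4339361, in contrast, turned below 0 under both scalings, to -0.35 and -0.38 when centred and to -0.31 and -0.43 after quantile normalization, and passed under neither. Without the 2 RR Fe 15 DAF libraries that had less storage protein transcript, the OsFKI difference was -1.01 with an adjusted p of 0.0323 by limma. The storage markers themselves were lower at 20 DAF in 8 of 9 genes past the test, all but GLB1, with a median log2 difference of -3.67. Their part in the OsFKI difference was not tested.

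**Figure D2:**
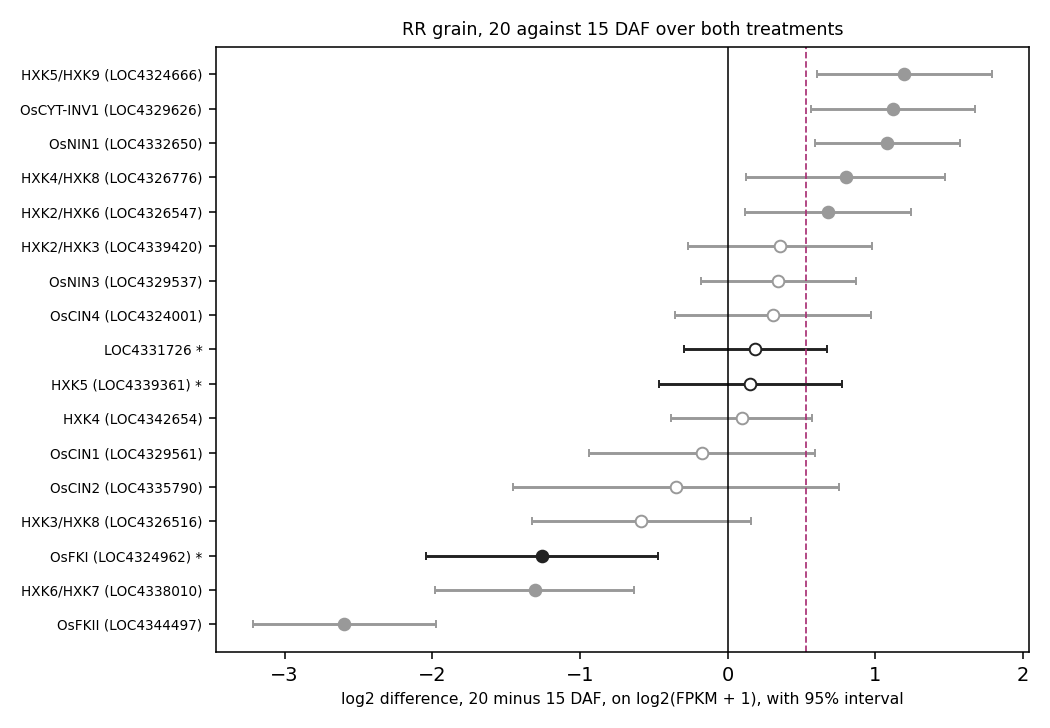
Log2 difference between 20 and 15 DAF in RR over both treatments, on log2(FPKM + 1), for the tested genes of the 3 families other than OsCIN5, with 95% intervals. Asterisks and black mark the 3 genes described here, grey the rest, filled points have an adjusted p below 0.05 in limma, and the dashed line is the median of all genes at 0.53. OsFKII, the hexokinase LOC4338010 and OsFKI lie at the lower end, and LOC4331726 and LOC4339361 have intervals that include 0.

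OsFKI was below OsFKII in group mean in BR and above it in RR at both days. OsFKII (LOC4344497), the other well-known rice fructokinase, read 33.4, 29.0 and 26.3 FPKM in the BR controls and 44.6, 33.4 and 36.4 FPKM under Fe in BR. It read 24.8 and 16.1 FPKM in the RR controls and 12.5, 15.1 and 2.15 FPKM under Fe at 15 DAF. By 20 DAF no library was above 2.15 FPKM. The log2 difference between days was -2.59 for OsFKII, with an adjusted p of 1.50e-05 by limma, so both named fructokinases fell.

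As a share of the summed FPKM of the 3 listed fructokinases, OsFKI made up 25.2% ± 7.21 (SD, n = 3) in BR controls and 20.6% ± 8.85 (SD, n = 3) in BR Fe. In RR it made up 50.5% (n = 2) and 63.1% ± 14.0 (SD, n = 3) at 15 DAF, and 57.0% ± 6.22 and 61.0% ± 6.95 (SD, n = 3 each) at 20 DAF, control before Fe. No RR library had a share as low as the highest in BR, 33.2%. LOC4331726 took 4.07% to 12.6% of the sum, by group mean, in BR and in RR at 15 DAF, and 32.7% and 33.1% at 20 DAF. Its own mean was 4.27 FPKM at 15 DAF and 5.70 FPKM at 20 DAF in the controls, while the sum of the 3 listed genes went from 50.1 to 17.1 FPKM.

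**Figure D3:**
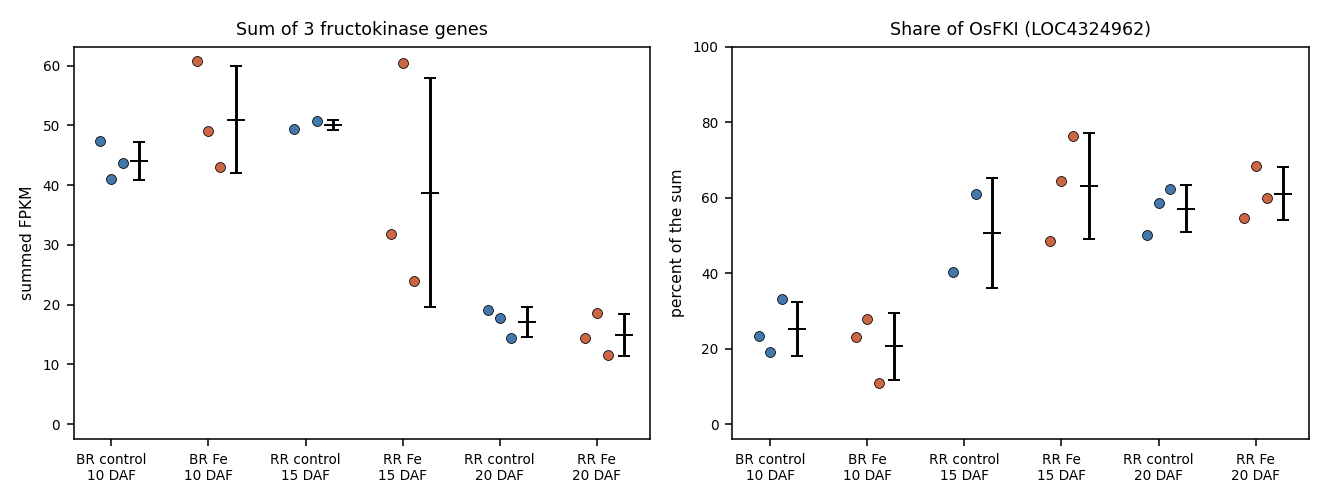
Left, summed FPKM of OsFKI, OsFKII and LOC4331726 in each library, and right, the percent of that sum taken by OsFKI, by group. Points are libraries, blue for control and orange for Fe, with mean ± SD to their right. The sum is between 11.5 and 19.1 FPKM in the 20 DAF libraries and at least 23.9 FPKM elsewhere, while the OsFKI share is at most 33.2% in BR and at least 40.2% in RR.

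OsCIN5 was likewise a small part of its family. The 7 named cell wall invertases, OsCIN1 to OsCIN7, summed to 14.4 to 21.2 FPKM in BR controls and 9.34 to 21.3 FPKM in BR Fe, and OsCIN5 supplied 6.80% ± 1.52 and 1.03% ± 0.269 of it (SD, n = 3 each). OsCIN1 (LOC4329561) supplied the largest part in every BR library but Fe replicate 1, where OsCIN2 read higher, at 11.1, 15.6 and 11.8 FPKM in controls and 8.04, 10.2 and 4.52 FPKM under Fe. OsCIN2 (LOC4335790), the grain-filling invertase also known as GIF1, varied widely, at 2.06, 3.01 and 0.299 FPKM in controls and 11.4, 5.21 and 1.5 FPKM under Fe. OsCIN6 (LOC4337312), which lies directly beside OsCIN5 in the reference annotation, never exceeded 0.251 FPKM and was above 0 in the 6 BR libraries only. Reads shared between such neighbouring or similar copies could have been divided between them by the counting, so values of single paralogs at this level are uncertain.

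The balance between invertase classes differed between BR and RR. In RR the cell wall invertases summed to no more than 4.19 FPKM in any library, against at least 9.34 FPKM in BR. OsNIN1 (LOC4332650), OsNIN3 (LOC4329537) and OsCYT-INV1 (LOC4329626), which cut sucrose inside the cell, summed to 18.1 ± 3.56 FPKM in BR controls and 60.3 ± 11.7 FPKM in the RR controls of 20 DAF (SD, n = 3 each). Library medians of log2(FPKM + 1) over all genes tested were 1.52 to 1.76 and 2.88 to 2.96 in these same groups. In RR at 15 DAF, OsNIN1, OsNIN3 and OsCYT-INV1 summed to 30.1 FPKM in controls (n = 2) and 38.7 ± 10.2 FPKM under Fe (SD, n = 3). Of the summed FPKM of these 10 genes, the cell wall invertases formed 48.3% ± 6.80 in BR controls and 3.20% ± 2.11 in RR controls at 20 DAF (SD, n = 3 each). No vacuolar invertase was matched by name, so that class is missing from the sum.

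**Figure D4:**
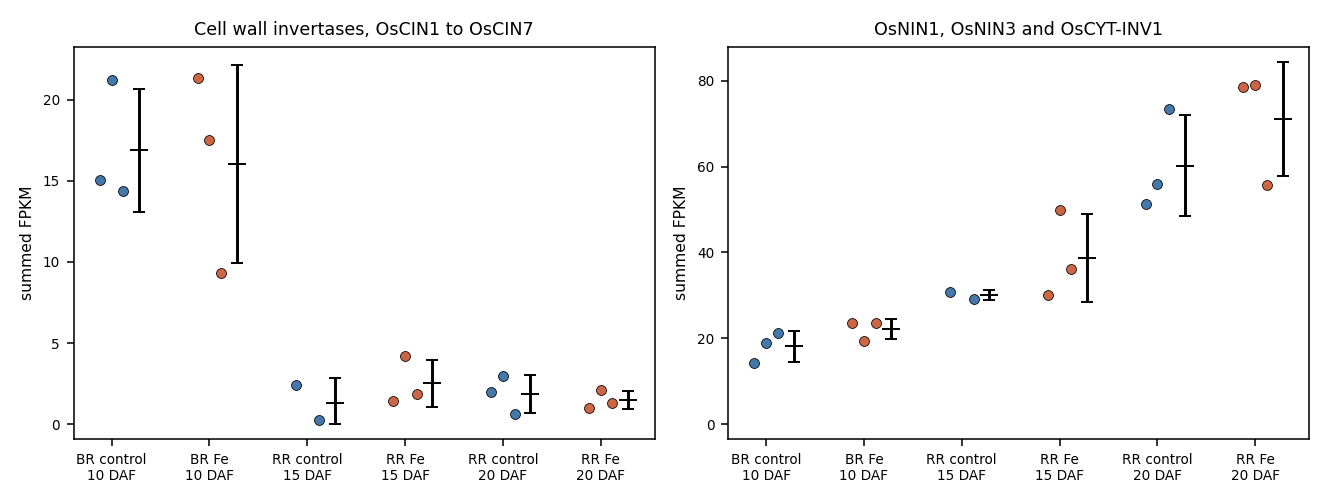
Summed FPKM of the cell wall invertases OsCIN1 to OsCIN7 (left) and of OsNIN1, OsNIN3 and OsCYT-INV1 (right) in each library, by group. Points are libraries, blue for control and orange for Fe, with mean ± SD to their right, cut at 0. Cell wall invertases are at least 9.34 FPKM in BR and at most 4.19 FPKM in RR. The other class is at least 51.2 FPKM in RR at 20 DAF and at most 50 FPKM elsewhere, in RR Fe 15 DAF replicate 2.

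The 3 families held 19 other named genes, 9 invertases, 9 hexokinases and OsFKII, and 14 of these 19 were high enough to test. None was called under Fe by limma in BR, in RR at 15 DAF or in RR at 20 DAF, and 5, 1 and 0 of them had an unadjusted p below 0.05. Over all genes 12.8%, 8.16% and 5.03% had such a p in the same comparisons. The 5 in BR were all invertases. OsCIN2, OsCIN4 (LOC4324001) and OsNIN3 had higher values under Fe, with log2 differences of 1.20, 0.75 and 0.57, and OsCIN1 and OsNIN1 lower values, with -0.74 and -0.48. The count rose to 2 in BR without BR Fe 10 DAF replicate 2, and to 1 in RR at 15 DAF without RR Fe 15 DAF replicate 1.

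Between days in RR, 5 of the 14 rose and 2 fell, against the 43.5% and 9.21% of all genes given above. OsNIN1 rose by 1.08 and OsCYT-INV1 by 1.12 on the log2 scale, with adjusted p-values of 0.0012 and 0.0023 by limma. Among the hexokinases LOC4324666 (HXK5 or HXK9) rose by 1.20, LOC4326776 (HXK4 or HXK8) by 0.80 and LOC4326547 (HXK2 or HXK6) by 0.68, with adjusted p-values of 0.0023, 0.0447 and 0.0404 by limma. LOC4338010 (HXK6 or HXK7) fell by 1.31 on the log2 scale, with an adjusted p of 0.0030 by limma. Hexokinase names follow more than one numbering in the reference table, so the identifiers are the safer key. With libraries centred on their medians the split was 3 higher and 3 lower. LOC4326776 and LOC4326547 then no longer passed, at 0.27 and 0.15, and LOC4326516 (HXK3 or HXK8) was added to the genes that fell. After quantile normalization 2 were higher and 3 lower.

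LOC4339361 was one hexokinase among several. It took 14.1% ± 3.42 of the summed FPKM of the 10 named hexokinases in BR controls and 14.5% ± 2.23 in the RR controls of 20 DAF (SD, n = 3 each), where its mean level was 3.19 and 9.70 FPKM. In the other groups the share was 10.2% ± 4.05 in BR Fe, 14.9% and 29.1% in the RR controls of 15 DAF, 13.2% ± 2.59 in RR Fe at 15 DAF and 15.8% ± 2.40 in RR Fe at 20 DAF (SD, n = 3). The hexokinase sum was 22.1 ± 5.08 FPKM in BR controls and 67.4 ± 4.64 FPKM in the RR controls of 20 DAF. Over all genes tested the library medians of log2(FPKM + 1) were higher there too, at 1.52 to 1.76 and 2.88 to 2.96. In RR at 15 DAF the hexokinase sum was 42.8 FPKM in controls (n = 2) and 64.3 ± 38.7 FPKM under Fe (SD, n = 3). The largest single value of the family was 61.4 FPKM for LOC4326516 in RR Fe 15 DAF replicate 2. HXK1 (LOC4343113) and LOC107275630 (HXK10 or HXK7) were each listed at 0 in 16 of 17 libraries.

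The neighbouring steps of sucrose use changed between days as well. In RR at 20 DAF, 4 of 6 tested sucrose synthases were lower past the test, with OsSUS2 (LOC4340386) at -2.83 on the log2 scale and an adjusted p of 4.42e-05 by limma. Of 8 starch synthesis genes 6 were lower and 2 higher, and the smallest p-values were those of ALK (LOC4340567), a starch synthase, at -3.20 and OsGBSS1 (LOC4340018), the granule-bound amylose synthase, at -3.63. Of 7 sucrose phosphate synthases and phosphatases, which rebuild sucrose, 5 were higher and 0 lower, and both glucose phosphate isomerases were higher. Of 13 sugar transporters tested 3 were higher and 2 lower. These counts stand beside 43.5% of all genes called higher and 9.21% called lower. With libraries centred on their medians, 3 sucrose phosphate synthases and phosphatases were higher and 1 lower, 1 transporter was higher and 7 lower, all 6 sucrose synthases and 6 starch genes were lower, and both isomerases stayed higher. Under Fe the same lists gave 0 calls in RR at either day, and in BR 2 calls, both lower, OsSWEET15 (LOC4329464) at -2.72 and OsSWEET6a (LOC4324213) at -1.43, which are sugar efflux carriers. Of the 13 transporters 12 had lower values under Fe in BR, against 9129 of the 19774 genes tested. Over all genes 1.06% were called lower and 0.915% higher under Fe in BR.

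Across the 17 libraries the closest match among the 4 genes was between LOC4331726 and LOC4339361, with a Pearson correlation of 0.79 on log2(FPKM + 1), and the other pairs ran from -0.57 to 0.40. The libraries share variety and day, which alone can give high correlations, so these are descriptions. Among about 2115 other tested genes with a short name, OsCIN5 was most like IAA29 (LOC4350100), OsHAK27 (LOC4333296) and LOX9 (LOC4345994), with correlations of 0.93, 0.91 and 0.91 over 17 libraries. Once group means were removed these fell to 0.02, 0.13 and -0.17. LOC4331726 was most like OsPDIL1-2 (LOC4335906), OsABCG36 (LOC4327728) and OsSPO11-4 (LOC4352826), at 0.88, 0.88 and 0.87. OsFKI was most like the ubiquitin gene UBQ3 (LOC4337080), OsEREBP1 (LOC4330935) and OsHox17 (LOC4336580), at 0.87, 0.85 and 0.83. LOC4339361 was most like BRL1 (LOC4346640), DPE2 (LOC4344192) and ARF24 (LOC4352211), at 0.95, 0.94 and 0.93, and within groups these remained at 0.80, 0.72 and 0.73.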

How the data were processed

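Grain RNA of BR and RR was sequenced on an Illumina platform. Per the study's methods, reads were aligned to the IRGSP-1.0 rice genome with HISAT2 and assembled with StringTie, and the authors deposited FPKM values in 1 table. Its 32657 genes include 3920 new genes of the assembly. One RR control library of 15 DAF, replicate 1, was not analysed here. The study's own test, DESeq2, needs counts and was not run. No step of whole reads could be recovered from low values, so depth is unknown and no counting interval is given.

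Groups followed the labels. Genes that reached an FPKM of 1 in 2 or more libraries (19774) were fitted on log2(FPKM + 1) with limma 3.58.1 in R 4.3.3, with 6 group means, a variance factor per group and trended moderation, two-sided. Benjamini-Hochberg adjustment covered all genes tested, called at 0.05. The script was tested on simulated data. P-values set differences of group means against the moderated spread between these libraries.

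The 4 genes, the family lists and the marker lists were chosen with earlier results of these data known. Named genes were the 4 and every measured gene matched to the 3 families by symbol, synonym or product words. Family genes without such a match would be missing from the lists, sums and shares. Also named were up to 4 genes of smallest p from the other lists, and the 3 short-named genes with the highest correlation to each of the 4. Names came from a reference table of another assembly, ASM3414082v1, in which 27491 of 28737 annotated identifiers matched, so no coordinates are given. LOC4331726 has no short name there. Alternatives were pseudocount 0.1, no filter and a filter at FPKM 5, only the libraries compared, no variance factor, median centring, quantile normalization, a replicate block and each library left out. Leaving out RR Fe 15 DAF libraries 2 and 3 together was chosen after seeing the data.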

Additional observations from a re-analysis of the deposited data

Results flagged for a closer look

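OsNIN1 (LOC4332650) had log2 differences of opposite sign under Fe in BR at 10 DAF and RR at 15 DAF, and was called in neither. Every Fe library was below every control library in BR at 10 DAF, with a log2 difference of -0.48, and every Fe library was above in RR at 15 DAF, with 0.58. Over all genes tested, 6.11% lay wholly below control in BR and 13.7% wholly above in RR at 15 DAF. OsNIN1 and OsFKII were picked from the listed family genes for such opposite separation. The difference between these responses was -1.05, with an adjusted p of 0.431 by limma. In RR at 20 DAF control and Fe overlapped, with a log2 difference of 0.04.

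OsFKII (LOC4344497) had the signs the other way round and was called under Fe in no comparison. Its Fe libraries were all above control in BR, with a log2 difference of 0.35, and all below control in RR, with -1.25 at 15 DAF and -0.54 at 20 DAF. Over all genes tested, 8.29% lay wholly above control in BR, and 3.05% and 3.75% wholly below in RR at 15 and 20 DAF. The BR response minus the RR response at 15 DAF was 1.61, with an adjusted p of 0.412 by limma. The BR response was not tested against that at 20 DAF. In the 15 DAF RR group 8 of 9 endosperm storage markers had lower values under Fe as well, with a median log2 difference of -1.64. Their part was not tested.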

How the results depend on the processing

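The fall of OsFKI between 15 and 20 DAF in RR kept its direction and its call in all 26 alternatives, from -1.90 to -1.01, with adjusted p-values of 0.000146 to 0.0367 by limma. The day differences of LOC4331726 and LOC4339361 passed in none and turned negative with median centring (-0.35 and -0.38) and quantile normalization (-0.31 and -0.43), and that of LOC4339361 also without RR control 15 DAF replicate 2 (-0.00104). With single libraries left out, the day differences ran from 0.10 to 0.31 for LOC4331726 and from -0.00104 to 0.31 for LOC4339361. Under Fe in RR at 20 DAF, OsFKI ran from -0.34 to 0.0553 and LOC4339361 from -0.31 to 0.14 in the same way, the upper ends without RR Fe 20 DAF replicate 3. Counts of other family genes called under Fe ran from 0 to 2 in BR and from 0 to 1 in RR at 15 DAF when 1 library was left out. The cause was not tested in any of these.

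Calls of hexokinases LOC4326776 and LOC4326547 between days held in 13 and 16 of 26 alternatives, and OsCYT-INV1 missed only with quantile normalization, at an adjusted p of 0.0544 by limma. The OsCIN5 difference in BR was -2.26 with a pseudocount of 0.1 and -1.19 after quantile normalization, against -0.87. In RR at 15 DAF it was -0.21 with median centring. The filter at FPKM 5 left OsCIN5 out and gave it no value. Residual correlations of same-numbered libraries ran from -0.357 to 0.231, and those of differently numbered libraries from -0.358 to 0.358. Residuals around a mean of 2 or 3 libraries are tied to one another, so these values cannot decide whether replicate numbers pair the libraries. The replicate block gave -1.27 for OsFKI between days with an adjusted p of 0.00649 by limma, 7 other family genes called between days, and changed no call. Levels near or below 1 FPKM, such as those of OsCIN5, rest on few reads of unknown number.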
